A study of Brassica napus with 22 samples.

Results

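The genes described here are the oilseed rape (Brassica napus) copies of 10 Arabidopsis loci that write, maintain, read or erase DNA methylation: MET1 (AT5G49160), VIM1 (AT1G57820), DDM1 (AT5G66750), CMT3 (AT1G69770), CMT2 (AT4G19020), KYP (AT5G13960), DRM2 (AT5G14620), AGO4 (AT2G27040), DME (AT5G04560) and ROS1 (AT2G36490). A gene was taken as a copy when the first 9 characters of the authors' best Arabidopsis protein match were the identifier of one of these loci. This gave 41 copies among 100447 genes with values, 20 in the A subgenome and 21 in the C subgenome. Gene symbols are those of the Arabidopsis match, so several copies share a symbol, and roles given below are known from Arabidopsis. Plants of cultivar Topas, grown under long days, gave seeds at the globular stage, from which 7 compartments were taken separately. The filial compartments, formed by fertilisation, were the embryo proper (2 libraries), micropylar endosperm (4), peripheral endosperm (2) and chalazal endosperm (3). The maternal compartments were the chalazal proliferating tissue (3 libraries), inner seed coat (3) and outer seed coat (2). Whole seeds (3 libraries) stood beside them. The labels list the whole seed as maternal, but it holds all tissues and was kept out of both sides. The labels give no difference in genotype or treatment between groups.

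DNA methylation in plants sits at cytosines in CG, CHG and CHH contexts, where H is any base but G. MET1 copies CG methylation onto the new strand after replication, with VIM1, which binds hemimethylated DNA, and the chromatin remodeler DDM1. CMT3 and CMT2 keep CHG and CHH methylation in a loop with the histone methyltransferase KYP, while DRM2 is guided by small RNAs that AGO4 carries. DME and ROS1 are glycosylases that cut methylated cytosine out of DNA. DME acts in the central cell before fertilisation, and the hypomethylation that it leaves on maternal alleles is tied to imprinting in Arabidopsis endosperm.

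The table gives 1 value per group, in FPKM (fragments scaled by transcript length and library size) that the authors rounded to whole numbers. Gene positions are as deposited, on a build not given in the sources used here. With 1 column per group no spread between replicates could be computed, no test was possible, and depth is unknown. Differences are therefore sizes in these columns, without an error. Of 13 marker loci, embryo markers were highest in the embryo proper and the general endosperm markers in an endosperm column. The embryo marker LEC1 had 274 FPKM in the embryo proper and 35 in the micropylar endosperm. AGL62, PHE1 and FIS2 summed to 46 FPKM in micropylar, 1242 in peripheral and 1626 in chalazal endosperm. Inner seed coat markers reached 1149 FPKM in sum in the inner seed coat and 1830 in the chalazal proliferating tissue, of which TT16 alone made up 1112 and 1768. TT12 was highest in the inner seed coat (36 FPKM) and BAN in the chalazal proliferating tissue (56, against 1 in the inner seed coat). Of the outer seed coat markers, GL2 and TTG2 were highest in the outer seed coat (47 and 61 FPKM) and at 0 in the micropylar endosperm, where MUM4 was highest (56). Inner seed coat markers summed to 24 FPKM in the micropylar endosperm. Ribosomal and organelle RNA genes made up 36.9% of FPKM in the micropylar endosperm column, against 4.16% to 16.0% in the other compartments and 0.00762% in the whole seed. Their part in the differences below was not tested. In bulk samples, fewer cells of a type and less RNA per cell cannot be told apart.

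Of the 41 copies, 33 reached 1 FPKM in 2 or more of the 8 columns. Of the 8 others, 7 were listed at 0 in all 8 columns and 1, BnaC09g26590D, had 1 FPKM in the chalazal endosperm. Under 1000 bases in deposited length were 6 of these 8, among them 3 VIM1 matches on C06, C07 and C09 that were each 255 bases long. The exceptions were a DRM2 match (BnaC02g05620D, 1668 bases) and an AGO4 match (BnaC04g56440D, 1731 bases). The embryo proper alone was highest for 14 of the 33 copies, as for 18.8% of the 54278 genes compared over the whole table, and the chalazal endosperm alone for 9, as for 11.0% of all genes. The micropylar endosperm, the peripheral endosperm and the chalazal proliferating tissue were each highest alone for 2 copies (15.5%, 9.64% and 13.1% of all genes), the outer seed coat for 1 (9.52%) and the inner seed coat for 0 (10.1%). The other 3 copies were tied: ROS1 BnaC04g08810D between embryo proper and micropylar endosperm, ROS1 BnaA05g07800D between micropylar endosperm and inner seed coat, and DDM1 BnaC02g29660D between peripheral endosperm and both seed coat layers. Filial compartments only were highest for 28 of the 33, beside 57.5% of all genes.

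**Figure D1:**
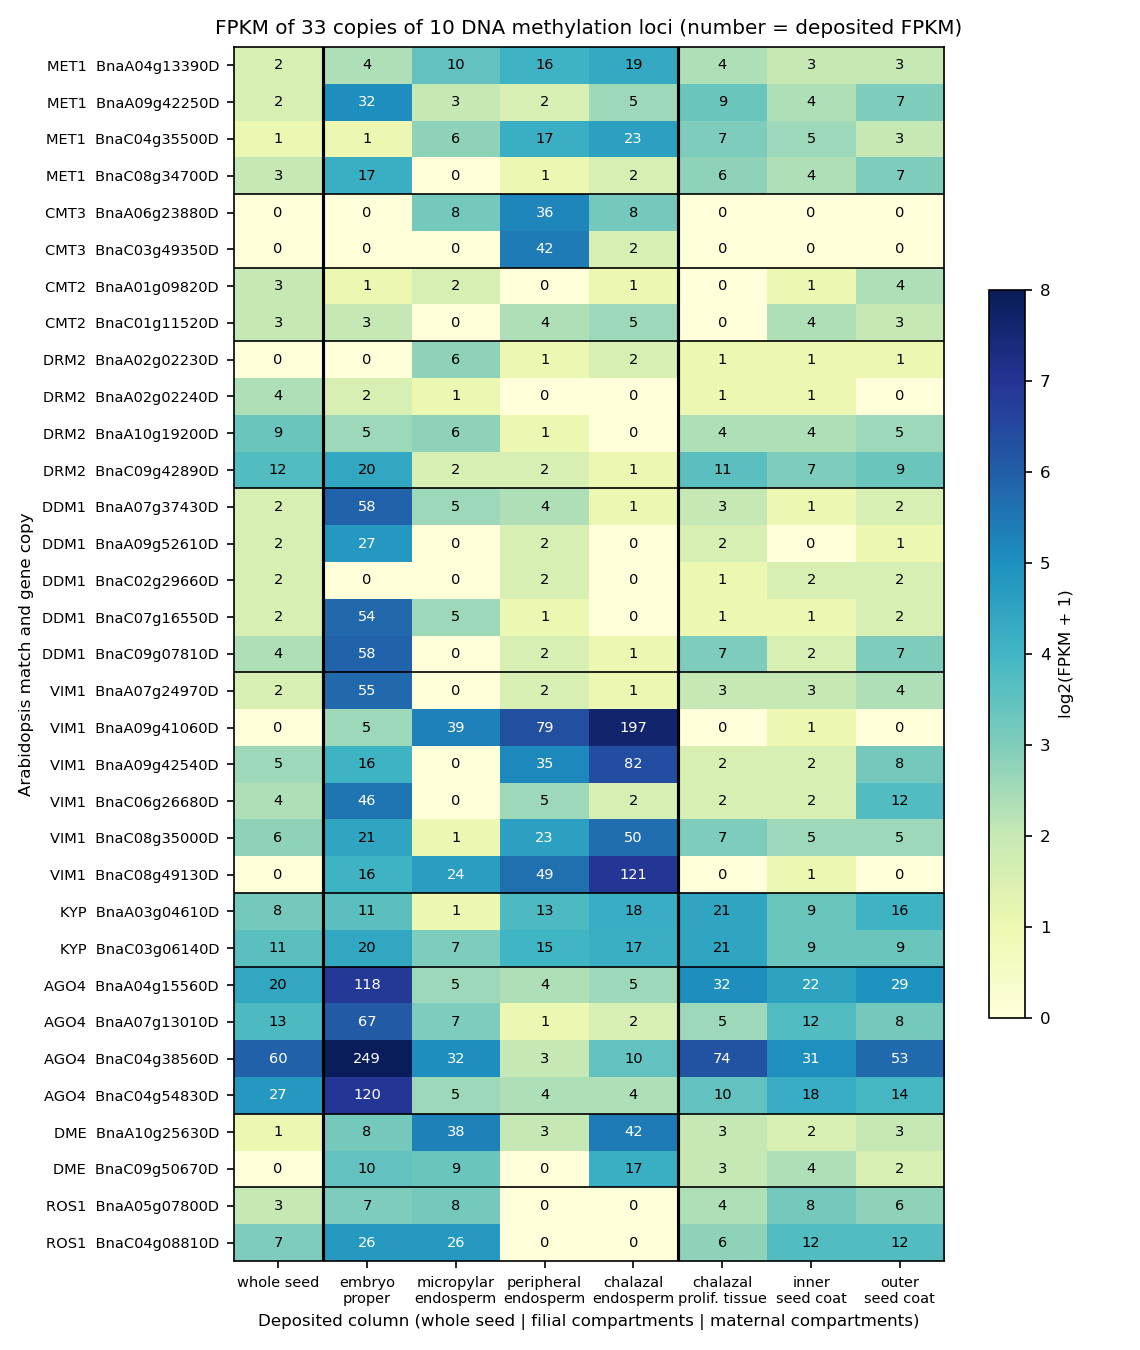
Deposited FPKM of the 33 copies with at least 1 FPKM in at least 2 columns, with copies in rows grouped by Arabidopsis locus and the 8 columns across; colour is log2(FPKM + 1) and each cell prints its FPKM. All AGO4 rows and 4 of 5 DDM1 rows are darkest in the embryo proper, while MET1 and VIM1 rows divide between the embryo proper and the endosperm, and CMT3 appears in endosperm columns alone.

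MET1, the CG maintenance methyltransferase, was represented by 4 copies of like length (4437 to 4507 bases) that fell into pairs with opposite profiles. BnaA09g42250D (A09, 29386022 to 29391726) had 32 FPKM in the embryo proper, against 3, 2 and 5 in micropylar, peripheral and chalazal endosperm and 9, 4 and 7 in the chalazal proliferating tissue, inner and outer seed coat. BnaC08g34700D (C08, 32763560 to 32769201) followed it with 17 FPKM in the embryo proper, against 0, 1 and 2 in the micropylar, peripheral and chalazal endosperm and 6, 4 and 7 in the same maternal order. Both were lower in all 3 endosperm regions and in maternal tissue than in the embryo proper.

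The other pair was endosperm-high. BnaA04g13390D (A04, 11296728 to 11302393) had 10, 16 and 19 FPKM in the micropylar, peripheral and chalazal endosperm, against 4 in the embryo proper and 3 to 4 in maternal tissue. BnaC04g35500D (C04, 37009939 to 37015638) had 6, 17 and 23 FPKM in the same endosperm regions, against 1 in the embryo proper and 3 to 7 in maternal tissue. In these copies the embryo proper lay below every endosperm region.

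Shares of a locus within a column do not depend on how columns are scaled, and their only error that can be computed here is that of rounding. The A09 and C08 pair, set apart from the A04 and C04 pair after the values were seen, made up 90.7% of MET1 FPKM in the embryo proper (88.9% to 92.6% by rounding). In the endosperm it made up 15.8% in the micropylar, 8.33% in the peripheral and 14.3% in the chalazal region. Maternal tissue lay between, at 57.7% for chalazal proliferating tissue, 50% for inner and 70% for outer seed coat. Summed over all 4 copies, MET1 differed far less between the embryo proper (54 FPKM), the chalazal endosperm (49) and the peripheral endosperm (36). Their order changed, at 38.6, 40.8 and 45.0, once a common median was set for all columns. The other sums were lower, at 19 FPKM in the micropylar endosperm (10.6 under the common median) and 16 to 26 in the maternal compartments.

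VIM1, the partner of MET1 that binds hemimethylated DNA, had 6 copies above the 255-base matches, and these formed 3 pairs. BnaA07g24970D (A07, 18679948 to 18684069) and BnaC06g26680D (C06, 28256688 to 28260883) were embryo copies. The first had 55 FPKM in the embryo proper, against 0, 2 and 1 in the micropylar, peripheral and chalazal endosperm and 3 to 4 in maternal tissue, and the second had 46, against 0, 5 and 2 and against 2 to 12.

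BnaA09g41060D (A09, 28728712 to 28732259) and BnaC08g49130D (C08_random, 4015919 to 4019393) were endosperm copies. The first had 39, 79 and 197 FPKM in the micropylar, peripheral and chalazal endosperm, against 5 in the embryo proper and 0 to 1 in maternal tissue. The second had 24, 49 and 121 FPKM in the same regions, against 16 in the embryo proper and 0 to 1 in maternal tissue. They lay in the order chalazal, peripheral, micropylar, with maternal tissue at or next to 0.

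BnaA09g42540D (A09, 29616080 to 29619169) and BnaC08g35000D (C08, 33036818 to 33039870) combined both sites. Chalazal endosperm had 82 and 50 FPKM of them, peripheral endosperm 35 and 23, and the embryo proper 16 and 21, against 2 to 8 in maternal tissue. In the micropylar endosperm they were at 0 and 1, unlike the endosperm pair, which made up 98.4% of the FPKM of the 6 copies there. The A07 and C06 pair held 63.5% of the FPKM of these 6 copies in the embryo proper and 0.662% in the chalazal endosperm, where the endosperm pair held 70.2%. Over all copies VIM1 summed to 454 FPKM in the chalazal endosperm, the most of any locus in that column, and to 193 in peripheral endosperm, 159 in the embryo proper and 14 to 29 in maternal tissue. With columns set to a common sum of all but ribosomal and organelle RNA genes, VIM1 had 191.6 FPKM in chalazal endosperm and 178.3 in the embryo proper, a fold of 1.07 in place of 2.86, and peripheral endosperm, at 145.5, was below the embryo proper.

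**Figure D2:**
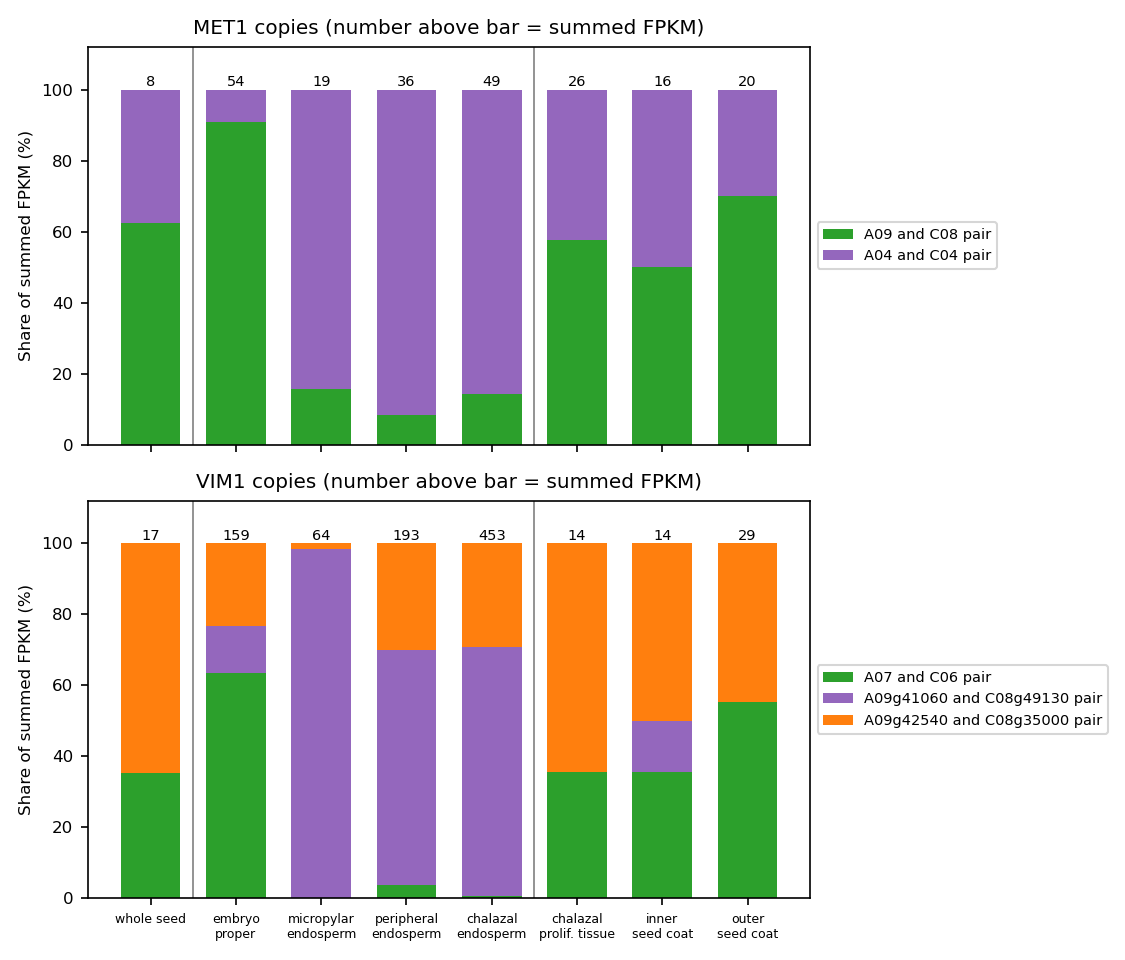
Share of the summed FPKM (%) of MET1 (upper panel) and VIM1 (lower panel) held by each pair of copies in each of the 8 columns, with the summed FPKM above each bar. The A09 and C08 pair holds 90.7% of MET1 in the embryo proper and 8.33% to 15.8% in the endosperm regions, and the A07 and C06 pair of VIM1 holds 63.5% in the embryo proper and at most 3.63% in the endosperm.

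DDM1, the remodeler that opens nucleosomes to the methyltransferases, was an embryo gene in 4 of its 5 copies. BnaA07g37430D (A07_random, 1083271 to 1087127) had 58 FPKM in the embryo proper, against 5, 4 and 1 in the micropylar, peripheral and chalazal endosperm and 3, 1 and 2 in the maternal compartments. BnaC09g07810D had 58 FPKM in the embryo proper, BnaC07g16550D had 54 and BnaA09g52610D had 27, each against at most 7 in any other compartment. The 568-base match BnaC02g29660D stayed at 0 to 2 FPKM throughout. Summed DDM1 stood at 197 FPKM in the embryo proper, 14.1-fold above the next compartments, the chalazal proliferating tissue and the outer seed coat, at 14 each. The fold over the chalazal proliferating tissue was 8.04 under the common median, and under the common sum the values were 221.0 and 11.1. Unlike MET1 and VIM1, no DDM1 copy was at more than 5 FPKM in an endosperm region.

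CMT3, the CHG methyltransferase, was found in endosperm columns and in no other. BnaA06g23880D (A06, 16520582 to 16525017) had 8, 36 and 8 FPKM in the micropylar, peripheral and chalazal endosperm, and BnaC03g49350D (C03, 34264132 to 34268583) had 0, 42 and 2. Both were listed at 0 in the embryo proper and in all 3 maternal compartments. The peripheral endosperm thus stood above the chalazal endosperm 7.8-fold in summed CMT3, with 78 against 10 FPKM, and 11.7-fold under the common median and 13.9-fold under the common sum. CMT2, which acts mainly on CHH sites in heterochromatin, was low everywhere, with at most 5 FPKM in any compartment for BnaC01g11520D and at most 4 for BnaA01g09820D.

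KYP, whose histone mark recruits the chromomethylases, had the 2 most even copies of the 33 by the specificity score explained below, at 0.17 and 0.25. BnaC03g06140D had 20 FPKM in the embryo proper, 7, 15 and 17 in the micropylar, peripheral and chalazal endosperm, and 21, 9 and 9 in the chalazal proliferating tissue, inner and outer seed coat. BnaA03g04610D had 11 FPKM in the embryo proper, 1, 13 and 18 in the endosperm regions in the same order, and 21, 9 and 16 in the maternal compartments. Both were highest in the chalazal proliferating tissue and lowest in the micropylar endosperm, though summed KYP was highest in the embryo proper with columns scaled to a common sum, at 34.8 against 33.2.

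AGO4, the argonaute of RNA-directed DNA methylation, was the most abundant locus, with 554 FPKM summed in the embryo proper. BnaC04g38560D (C04, 39739228 to 39745117) had 249 FPKM in the embryo proper, against 32, 3 and 10 in the micropylar, peripheral and chalazal endosperm and 74, 31 and 53 in the maternal compartments. BnaC04g54830D, BnaA04g15560D and BnaA07g13010D had 120, 118 and 67 FPKM in the embryo proper, and each had at most 7 in any endosperm region. Summed AGO4 was at 12 FPKM in peripheral and 21 in chalazal endosperm, below the 83 to 121 of the maternal compartments.

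DRM2, the methyltransferase that AGO4 recruits, was low, and its main copy was also highest in the embryo proper. BnaC09g42890D (C09, 44251223 to 44255348) had 20 FPKM in the embryo proper, against 2, 2 and 1 in the micropylar, peripheral and chalazal endosperm and 11, 7 and 9 in the maternal compartments. BnaA10g19200D ranged from 0 in the chalazal endosperm to 6 in the micropylar endosperm. The neighbours BnaA02g02230D and BnaA02g02240D, 3259 bases apart with 0 genes between, reached 6 FPKM in the micropylar endosperm and 2 in the embryo proper. Against MET1 in the same column, summed DRM2 came to a ratio of 0.061 in the chalazal and 0.11 in the peripheral endosperm, and of 0.50 to 0.81 in the other 5 compartments. The chalazal and peripheral ratios rest on DRM2 sums of 3 and 4 FPKM, so rounding weighs on them and their order is not settled.

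The demethylases parted ways within the endosperm. DME copy BnaA10g25630D (A10, 16440293 to 16455585) had 42 FPKM in chalazal and 38 in micropylar endosperm, against 3 in peripheral endosperm, 8 in the embryo proper and 2 to 3 in maternal tissue. BnaC09g50670D (C09, 48435032 to 48442960) had 17 FPKM in chalazal and 9 in micropylar endosperm, against 0 in peripheral endosperm, 10 in the embryo proper and 2 to 4 in maternal tissue. The peripheral endosperm, highest for CMT3, was the lowest compartment for summed DME. Summed DME had 59 FPKM in chalazal and 47 in micropylar endosperm as deposited, an order that turned to 24.9 and 44.3 under the common sum.

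ROS1, the glycosylase that prunes methylation in most plant tissues, was listed at 0 in the peripheral and chalazal endosperm in both copies. BnaC04g08810D (C04, 6603516 to 6610098) had 26 FPKM in both the embryo proper and micropylar endosperm, against 6 in the chalazal proliferating tissue and 12 in each seed coat layer. BnaA05g07800D (A05, 4240282 to 4246793) had 7 and 8 FPKM in the embryo proper and micropylar endosperm, against 4, 8 and 6 in the maternal compartments. Of these glycosylases the chalazal and the peripheral endosperm thus listed DME alone, at 59 and 3 FPKM in sum. In the inner and outer seed coat ROS1 stood at 3.33 and 3.60 times DME, on low DME sums of 6 and 5 FPKM.

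As a ratio within each column, DME and ROS1 together came to 4.26 times MET1 in the micropylar endosperm (3.76 to 4.74 by rounding), at 81 against 19 FPKM. The embryo proper had a ratio of 0.944 and the chalazal endosperm of 1.20. Peripheral endosperm had a ratio of 0.0833 (0.0658 to 0.147 by rounding). In the chalazal proliferating tissue, inner and outer seed coat it was 0.615, 1.63 and 1.15. The endosperm regions thus held both the highest and the lowest ratio of the 7 compartments.

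**Figure D3:**
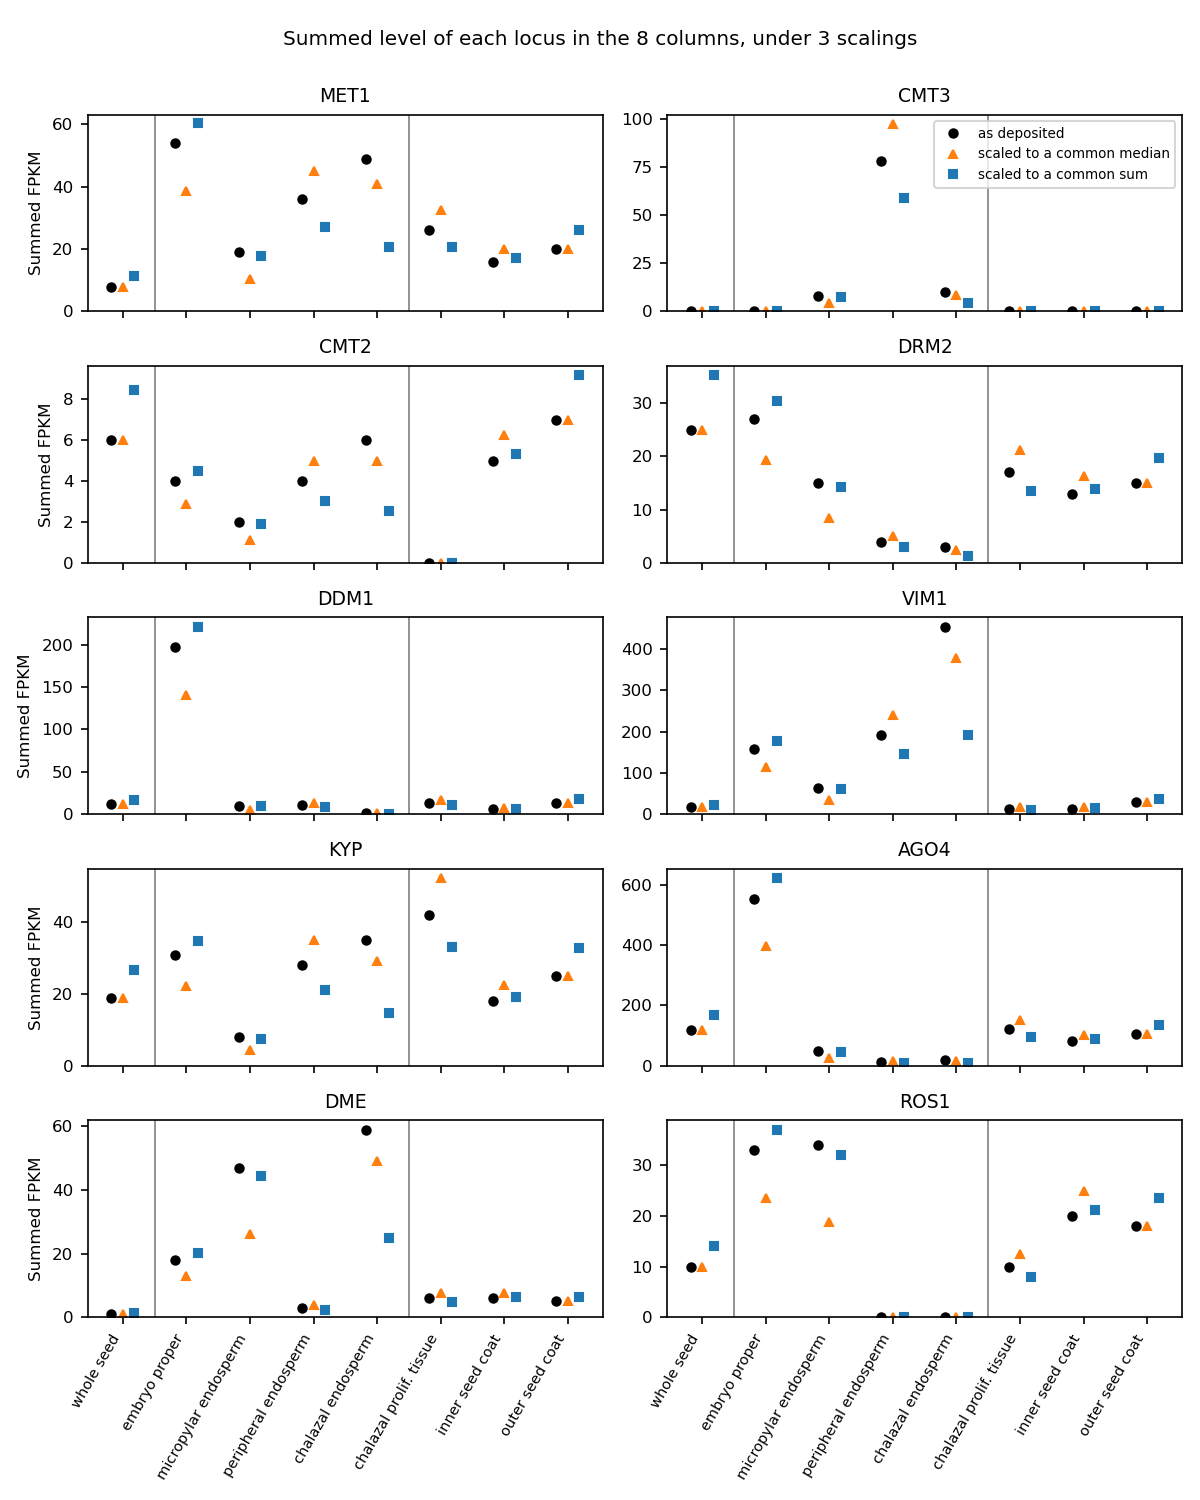
Summed FPKM of all copies of each locus in the 8 columns, as deposited (black circles), scaled to a common median (orange triangles) and scaled to a common sum without ribosomal and organelle RNA genes (blue squares). AGO4 and DDM1 peak in the embryo proper, VIM1 in the chalazal endosperm and CMT3 in the peripheral endosperm under all 3 scalings, whereas the highest compartment of MET1, DRM2, KYP, DME or ROS1 changes with the scaling.

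Compartments were next compared over whole profiles, to ask which copies follow the products of fertilisation, the mother plant or a single compartment. A copy was counted as higher or lower when the mean log2(FPKM + 1) differed by at least 1 (2-fold) and the higher side averaged 5 FPKM or more. Such a rule of size has no error rate, and all 9 comparisons share columns, so their counts are not independent.

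Between filial and maternal compartments, 10 of the 33 copies were higher on the filial side (30.3%, beside 10.1% of all genes compared). Lower were 6 (18.2%, beside 16.9% of all genes), and 17 were neither. The median difference over the 33 copies was 0.14 log2, beside -0.17 for all genes. Higher were both CMT3 copies, the endosperm and the combined pair of VIM1, DDM1 copies BnaA07g37430D and BnaC07g16550D, the MET1 copy BnaA04g13390D and the DME copy BnaA10g25630D. The VIM1 copy BnaA09g41060D led with a mean of 80 FPKM on the filial side and 0.333 on the maternal side, a difference of 5.13 log2. Its partner BnaC08g49130D averaged 52.5 FPKM in filial and 0.333 in maternal tissue. Both CMT3 copies and the endosperm pair of VIM1 reached 1 FPKM in 2 columns, the filter on low values, only with filial columns counted. Their calls as higher on the filial side, and as lower in maternal tissue or the whole seed, are thus partly set by that filter.

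Lower on the filial side were both ROS1 copies, the AGO4 copies BnaA04g15560D and BnaC04g38560D, DRM2 copy BnaC09g42890D and MET1 copy BnaC08g34700D. For some of these the linear mean went the other way: BnaC04g38560D averaged 73.5 FPKM in filial and 52.7 in maternal tissue but differed by -1.04 log2, where the 4 filial values ran between 3 and 249 FPKM. The means of AGO4 BnaA04g15560D (33 FPKM in filial and 27.7 in maternal tissue) and ROS1 BnaC04g08810D (13 FPKM in filial and 10 in maternal tissue) also went against their log2 differences. Without the micropylar endosperm column the split was 11 higher and 3 lower, and under a common median it was 8 and 8, where the all-gene median moved by -0.27 log2. The DDM1 copy BnaC07g16550D (0.79 log2 under the common median) and the VIM1 copy BnaC08g35000D (0.83, and 0.80 under the common sum) were then short of the rule.

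**Figure D4:**
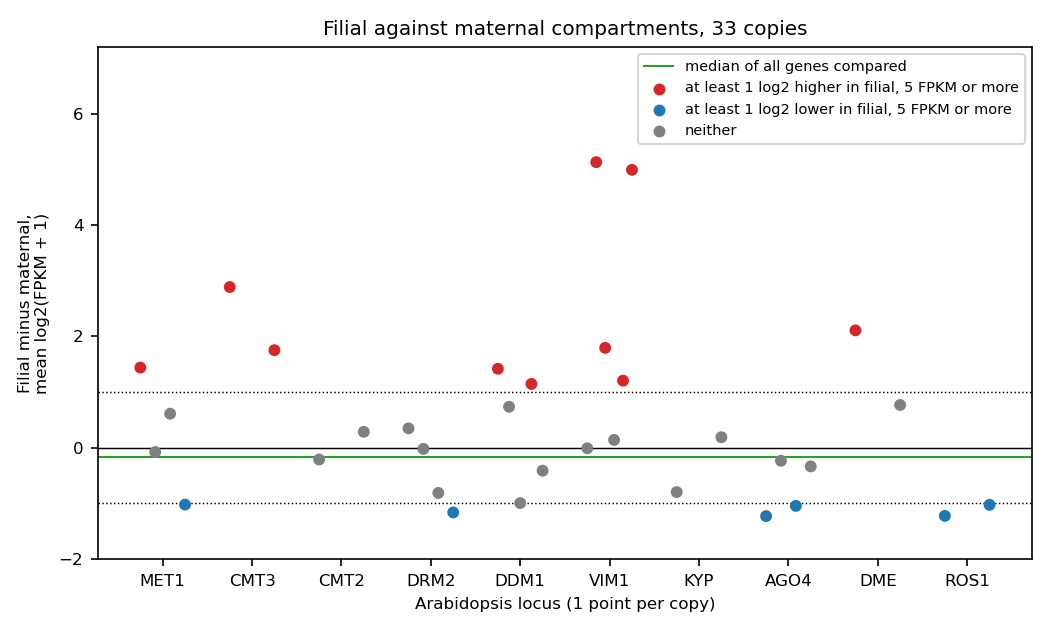
Filial minus maternal difference in mean log2(FPKM + 1) for each of the 33 copies, grouped by locus, with the rule of size at 1 and -1 (dotted) and the median of all genes compared (green line, -0.17). Copies of MET1, DDM1 and VIM1 spread over more than 2 log2 units, both CMT3 copies lie above 1 and both ROS1 copies lie below -1.

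Against the other 6 compartments, the embryo proper had 19 copies higher (57.6%, beside 20.1% of all genes compared), 3 lower (9.09%, beside 17.2%) and 11 neither. The median difference was 1.11 log2 over the copies and -0.33 over all genes. Higher were all 4 AGO4 copies, 4 of 5 DDM1 copies, 5 of 6 VIM1 copies, both ROS1 copies, and 2 of 4 MET1 copies, with DRM2 BnaC09g42890D and DME BnaC09g50670D. For 2 of these VIM1 copies the linear mean went the other way: BnaA09g42540D had 16 FPKM in the embryo proper and a mean of 21.5 elsewhere, and BnaC08g49130D had 16 and a mean of 32.5. The widest were DDM1 copies, at 4.11 to 4.59 log2, and VIM1 BnaA07g24970D at 4.32. Lower were both CMT3 copies, which met the filter on low values only through endosperm columns, and the MET1 copy BnaC04g35500D. Under a common median the counts were 14 higher and 5 lower, and the endosperm and combined copies of VIM1 lay between 0.57 and 0.72 log2 where they had passed.

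In the micropylar endosperm 9 copies were higher (27.3%, beside 19.4% of all genes) and 12 lower (36.4%, beside 18.2%). The median was -0.08 log2 over the copies and -0.46 over all genes. Both DME and both ROS1 copies were higher, as were the endosperm pair of VIM1, CMT3 BnaA06g23880D and DRM2 BnaA02g02230D and BnaA10g19200D. The linear means of the VIM1 pair went the other way, with 39 FPKM in the micropylar endosperm and a mean of 47 elsewhere for BnaA09g41060D, and with 24 and 31.2 for BnaC08g49130D. Both embryo copies and the combined pair of VIM1 were lower. Under a common median, 3 copies were higher and 13 lower, and of the demethylases DME BnaC09g50670D (0.36 log2) and ROS1 BnaA05g07800D (0.54) no longer passed.

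In the peripheral endosperm 8 copies were higher (24.2%, beside 13.7% of all genes) and 11 lower (33.3%, beside 11.4%). Medians were -0.60 log2 over the copies and -0.06 over all genes. Higher were both CMT3 copies, by 5.16 log2 for BnaC03g49350D and 4.15 for BnaA06g23880D, with 4 VIM1 and 2 MET1 copies. CMT3 BnaC03g49350D met the filter on low values only with the peripheral endosperm counted. Lower were all 4 AGO4 copies, both DME copies, both ROS1 copies, 2 MET1 copies and DRM2 BnaC09g42890D.

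The chalazal endosperm had 10 copies higher (30.3%, beside 13.6% of all genes) and 12 lower (36.4%, beside 15.5%). Medians were -0.63 log2 over the copies and -0.33 over all genes. Higher were 4 VIM1 copies, led by BnaA09g41060D at 5.09 log2, both DME copies at 2.75 and 2.06 log2, 2 MET1 copies, CMT3 BnaA06g23880D and CMT2 BnaC01g11520D. Lower were all 4 AGO4 copies, both ROS1 copies, 4 DDM1 copies, DRM2 BnaC09g42890D and VIM1 BnaA07g24970D. Scaling to a common sum gave 5 higher and 15 lower, where the all-gene median shifted by -0.67 log2, and both MET1 copies (0.51 and 0.87 log2) and DME BnaC09g50670D (0.89) no longer passed.

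Maternal compartments had fewer copies past the rule. The chalazal proliferating tissue had 4 higher (12.1%, beside 16.5% of all genes) and 6 lower (18.2%, beside 11.2%). The higher copies were KYP BnaA03g04610D, DRM2 BnaC09g42890D and AGO4 BnaA04g15560D and BnaC04g38560D. Their number was 1 under a common sum and without the micropylar endosperm column. A common median gave 7 higher and 5 lower. The median difference was -0.23 log2 over the copies and -0.07 over all genes.

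The inner seed coat had 2 copies higher (6.06%, beside 15.4% of all genes), both ROS1, and 9 lower (27.3%, beside 6.99%). The outer seed coat had 3 higher (9.09%, beside 14.8% of all genes), MET1 BnaC08g34700D, VIM1 BnaC06g26680D and ROS1 BnaC04g08810D, and 7 lower (21.2%, beside 10.4%). Both CMT3 copies and the endosperm pair of VIM1 were lower in all 3 maternal compartments, although CMT3 BnaC03g49350D lay just short of the rule, at -0.99 log2, under the common sum. These copies met the filter on low values only with filial columns counted. Medians over the copies and over all genes were -0.23 and 0.21 log2 for the inner layer and 0.18 and -0.15 for the outer layer. Under a common median the inner seed coat had 5 higher and 7 lower, and under a common sum the outer seed coat had 11 higher and 3 lower.

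The whole seed was set against the 7 compartments to ask how far the intact seed shows the same copies. It had 3 copies higher (9.09%, beside 16.1% of all genes), DRM2 BnaA10g19200D and BnaC09g42890D and AGO4 BnaC04g54830D. It had 9 lower (27.3%, beside 9.6% of all genes), at medians of -0.22 log2 over the copies and 0.06 over all genes. With a common sum it had 6 higher and 6 lower. Of the 30 copies at 5 FPKM or more in a compartment, 6 were listed at 0 in the whole seed, or 20%, beside 18.1% of all such genes. They were both CMT3 copies, the endosperm pair of VIM1, DRM2 BnaA02g02230D and DME BnaC09g50670D. BnaA09g41060D is the widest case, at 0 FPKM in the whole seed and 197 in the chalazal endosperm. Summed by locus, the whole seed had 120 FPKM of AGO4, 25 of DRM2, 19 of KYP, 17 of VIM1, 12 of DDM1, 10 of ROS1, 8 of MET1, 6 of CMT2, 1 of DME and 0 of CMT3. AGO4 thus had the largest sum of the 10 loci there. It also led in the outer seed coat (104 FPKM), inner seed coat (83), chalazal proliferating tissue (121) and embryo proper (554). In each endosperm region VIM1 was ahead of it.

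Within a locus, copies grouped across the subgenomes. For MET1, DDM1, VIM1 and AGO4, which have at least 4 copies at 5 FPKM or more, the copy with the closest profile over the 7 compartments was in the other subgenome in 18 of 18 cases. Pearson correlations of log2(FPKM + 1) with that closest copy ran from 0.81 to 0.97. In MET1, DDM1 and VIM1 each pair was counted from both of its copies, and most possible partners of a copy lay in the other subgenome. For DDM1 BnaA09g52610D the closest copy, BnaC09g07810D (0.916), was barely ahead of the A copy BnaA07g37430D (0.911). The MET1 copies on A04 and C04 correlated at 0.81 and those on A09 and C08 at 0.87, while correlations across these pairs ran from -0.73 to -0.52. For VIM1 the 3 pairs reached 0.92, 0.97 and 0.95. These correlations rest on 7 shared columns and are descriptions, and how reads that fit several near-identical copies were assigned is not given in the sources used here.

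The ROS1 copies correlated at 0.98, the CMT3 copies at 0.82, the DME copies at 0.75 and the KYP copies at 0.69. The C copy held 71.3% of ROS1 FPKM over the compartments and C copies 66.4% of AGO4 FPKM, whereas A copies held 68.8% of DME and 57.6% of VIM1 FPKM. The embryo-high MET1 copy on A09 lies 224353 bases from the VIM1 copy BnaA09g42540D, with 28 genes between, and on C08 the matching copies lie 267616 bases apart with 29 genes between. The VIM1 copies next to them are those of the combined pair, highest in the chalazal endosperm. On a scale where 0 is even over the 7 compartments and 1 is a single compartment, the 33 copies had a median specificity of 0.56, beside 0.60 for all genes compared. It ran from 0.17 in KYP BnaC03g06140D to 0.95 in CMT3 BnaC03g49350D.

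Other genes of small-RNA-directed methylation, from a list of 21 loci, had 67 copies compared from 20 of them. The embryo proper had 23 higher (34.3%, beside 20.1% of all genes), 9 lower (13.4%, beside 17.2%) and 35 neither, at a median of 0.73 log2, beside -0.33 for all genes. In the chalazal proliferating tissue 16 were higher (23.9%, beside 16.5% of all genes), 8 lower (11.9%, beside 11.2%) and 43 neither, at a median of 0.25 log2, beside -0.07 for all genes. AGO9, a germline-linked argonaute in Arabidopsis, reached 1491 FPKM there in BnaCnng75800D, against no more than 18 in any other compartment, and 270 in BnaA10g14560D. The whole seed listed these copies at 0 and 16 FPKM. The AGO9 copy BnaA02g05290D had 2 FPKM in the chalazal proliferating tissue, against 27 in the embryo proper and 22 and 29 in the inner and outer seed coat. NRPD1, the large subunit of RNA polymerase IV, had 113 FPKM in the chalazal proliferating tissue in BnaCnng59660D, against at most 11 elsewhere. Several of the copies higher in that tissue are copies of the same loci, AGO9, NRPD1 and CLSY3, so a few loci weigh heavily in the count. In the chalazal endosperm 5 copies were higher (7.46%, beside 13.6% of all genes), 16 lower (23.9%, beside 15.5%) and 46 neither, at a median of -0.62 log2, beside -0.33 for all genes.

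Further maintenance genes, with 8 copies compared from 4 of 10 loci, gave 6 higher, 0 lower and 2 neither in the embryo proper, where 20.1% of all genes were higher and 17.2% lower. Their median was 1.68 log2, beside -0.33 for all genes. The chromomethylase CMT1, a relative of CMT3, had 55 FPKM there in BnaC05g08730D and 21 in BnaA06g07080D, against at most 11 and 3 elsewhere. CMT1 and CMT3 thus had opposite places, in the embryo proper and in the endosperm. VIM3, with no copy compared, summed to no more than 1 FPKM. Further demethylation genes, with 19 copies compared from 7 of 8 loci, gave 8 higher (42.1%, beside 20.1% of all genes), 0 lower (17.2% of all genes) and 11 neither in the embryo proper, at a median of 0.93 log2. Among them the repair phosphatase ZDP had 50 FPKM there in BnaA05g24640D, against 5 to 22 in the other compartments.

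Replication genes (PCNA and the MCM helicase) were listed beside these, since MET1, VIM1 and DDM1 act on newly copied DNA. In the embryo proper 23 of 26 copies were higher and 0 lower, beside 20.1% and 17.2% of all genes, with a median of 2.73 log2. In the chalazal endosperm 0 were higher and 18 lower, beside 13.6% and 15.5% of all genes, with a median of -1.50. There 4 of 6 VIM1 and 2 of 4 MET1 copies were higher, while 4 of 5 DDM1 copies and 1 VIM1 copy were lower. Summed MCM3 stood at 146 FPKM in the embryo proper, at 58, 27 and 4 in micropylar, peripheral and chalazal endosperm, and at 68, 11 and 59 in chalazal proliferating tissue, inner and outer seed coat. The part of replication in these differences was not tested.

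Genes known as targets of DNA methylation or DME in Arabidopsis had 8 of 15 copies compared, from 3 of 7 loci, PHE1, MEA and FIS2. Of these, PHE1 and FIS2 also served as endosperm markers. All 8 copies passed the filter on low values only through endosperm columns. Their counts as higher in the endosperm are thus partly set by that filter. In the peripheral endosperm 6 were higher, 0 lower and 2 neither, beside 13.7% of all genes higher and 11.4% lower, at a median of 3.11 log2 (-0.06 for all genes). In the chalazal endosperm 7 were higher, 0 lower and 1 neither, beside 13.6% of all genes higher and 15.5% lower, at a median of 2.42 log2 (-0.33 for all genes). The micropylar endosperm had 3 higher (19.4% of all genes), 2 lower (18.2%) and 3 neither, at a median of -0.31 log2 (-0.46 for all genes). FIS2, an imprinted Polycomb gene, summed to 20, 23 and 22 FPKM in the micropylar, peripheral and chalazal endosperm and to 0 in each other compartment. MEA, its partner, summed to 8, 24 and 18 FPKM in these regions and to 4 in the outer seed coat. FWA, a classic methylated gene with no copy compared, had 4 FPKM in the peripheral endosperm and 0 elsewhere. Summed DME was at 47, 3 and 59 FPKM in the micropylar, peripheral and chalazal endosperm. Its part in the levels of these genes was not tested.

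**Figure D5:**
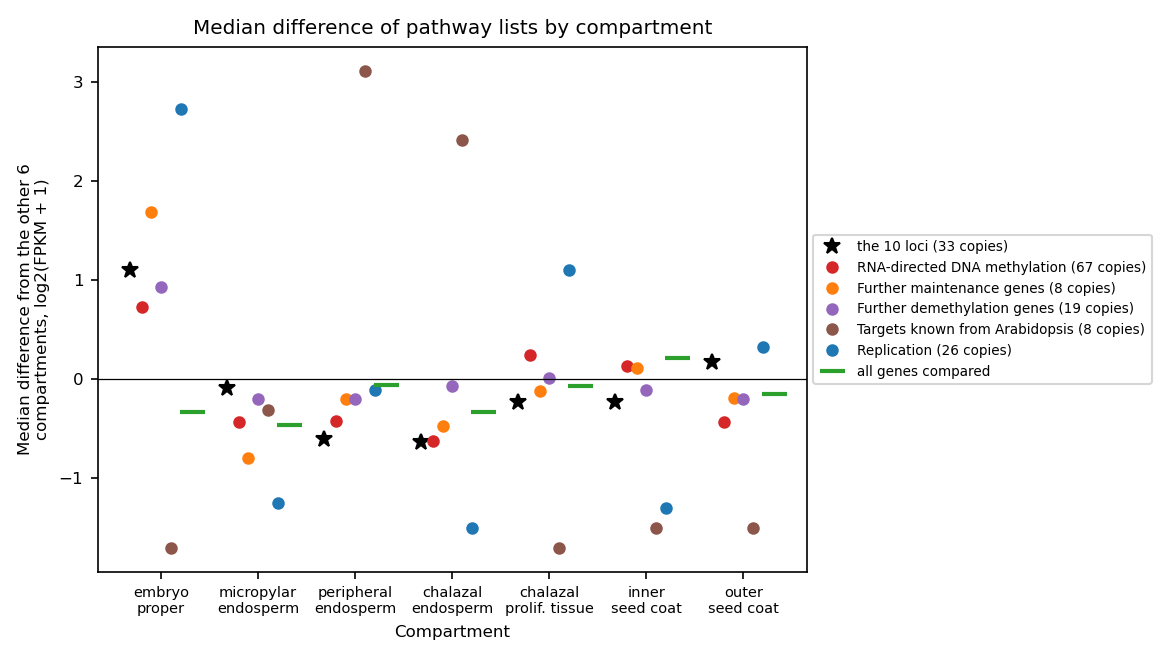
Median difference of each gene list from the other 6 compartments, in log2(FPKM + 1), for each of the 7 compartments, with the 33 copies of the 10 loci as stars and all genes compared as green bars. In the embryo proper replication genes (2.73), further maintenance genes (1.68) and the 10 loci (1.11) lie above all genes (-0.33), and in the chalazal endosperm replication genes lie at -1.50.

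Among 20420 genes with at least 20 FPKM in a compartment, those with the profiles most like those of the copies with the highest single value of MET1, CMT3, DME and ROS1 were sought by Pearson correlation of log2(FPKM + 1) over the 7 compartments. The third closest to the MET1 copy BnaA09g42250D was a PCNA2 copy, BnaC05g05150D, with r = 0.96 and 33 FPKM in the embryo proper. Ahead of it stood an alpha/beta-hydrolase gene, BnaC03g09680D (r = 0.97, 42 FPKM in the embryo proper). The CMT3 copy BnaC03g49350D was matched by a leucine-rich repeat kinase gene, BnaCnng44290D, at 44 FPKM in peripheral and 2 in chalazal endosperm, and by a reticulon gene, BnaA02g27090D, at 132 and 3. Both had 0 FPKM in the other 5 compartments and r of 1.00. For the DME copy BnaA10g25630D the closest was BnaA09g34760D, an RNI-like gene (r = 0.97), and for the ROS1 copy BnaC04g08810D it was BnaA02g05220D, a leucine-rich repeat gene (r = 0.99). The highest of so many correlations over 7 points are high by selection.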

How the data were processed

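Libraries were made from total RNA with a NuGen low-input kit, per the labels' protocols. The submitters' processing notes name Trimmomatic 0.36, HISAT2 and Cufflinks, and neither settings nor genome build are given in the sources used here. The deposited values are a score: FPKM that the authors rounded to whole numbers, 1 column per group. How the 22 libraries were combined is not given. Its header gives the whole seed column no unit, so FPKM is an inference. The other unit in the deposited table, length in bases, was used to describe copies. A further 1 FPKM column matched no sample and was not used.

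Of 101040 genes, 593 had no compartment values. Starts were moved by 1 base: the deposited length equals end minus deposited start for 17707 genes, and end minus start plus 1 for 0. Comparisons used a pseudocount of 1 and the 54278 genes that reached 1 FPKM in 2 or more columns. The planned limma tests could not be run on 1 column per group, so the rule of size stood in. The code was tested on simulated data. Named copies are those past that rule in a comparison, the highest copy of each locus, up to 3 copies per pathway list and the 3 closest genes to 4 copies. The summed MCM3, VIM3, MEA, FIS2 and FWA values, the AGO9 copy BnaA02g05290D and the pairs of copies were chosen after values were seen. The members and lists were chosen with earlier results of these data known. Alternatives were a pseudocount of 0.1, no filter, columns scaled to a common median or to a common sum without 367 ribosomal and organelle RNA genes, and omission of the micropylar endosperm. Software was pandas 2.3.3 and numpy 2.4.6 under Python 3.11.15, with plots in matplotlib 3.10.9.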

Additional observations from a re-analysis of the deposited data

How the results depend on the processing

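Of 143 calls of single copies over the 9 comparisons, 142 held with a pseudocount of 0.1, 143 without a filter, 120 with a common median, 121 with a common sum, and 106 of 122 without the micropylar endosperm column. None of these calls changed sign under these alternatives. Counts of copies moved by over 1.5 times as follows, and the cause was not tested. With a pseudocount of 0.1, 8 copies were higher in the outer seed coat. With a common median, 5 were lower in the embryo proper, 3 higher in the micropylar endosperm, 7 higher in the chalazal proliferating tissue and 5 higher in the inner seed coat. With a common sum, higher copies numbered 5 for chalazal endosperm, 1 for chalazal proliferating tissue, 11 for outer seed coat and 6 for whole seed, and 3 were lower in the outer seed coat. Without the micropylar endosperm, 3 were lower on the filial side, and higher copies numbered 1 each for chalazal proliferating tissue and whole seed. Shifts of the all-gene median under the common sum were -0.67 log2 for chalazal endosperm, 0.40 for outer seed coat and 0.45 for whole seed, and under the common median -0.41 for micropylar endosperm and -0.33 for embryo proper. Shares within a column are free of this. No paired analysis was possible because the table holds 1 column per group, and for the same reason no replicate could be left out. Depth is unknown, and values under 5 FPKM are coarse.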
